A study of Homo sapiens with 8 samples.

Results

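The genes described here are 47 human genes that cells are known to switch on after type I interferon, taken by symbol from a deposited table of 20294 genes. RNA was sequenced from HSC-5, a line of human cutaneous squamous cell carcinoma that stably expressed Cas9, the nuclease that guide RNAs direct to a gene. The cells carried the guide sgEZH2-1 (3 libraries), the guide sgEZH2-2 (3 libraries), or, as Control, the empty vector without a guide against EZH2 (2 libraries). Cells of all 3 groups carried Cas9 and were grown in medium with serum. Carriers of a guide were selected with G418, RNA was taken straight after selection, and no cloning step is stated. EZH2 is the enzyme of Polycomb repressive complex 2 that methylates a lysine of histone H3 and keeps many genes silent, and the comparisons ask which transcripts change when the gene is targeted.

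Type I interferons bind a receptor on the cell surface, and its kinases JAK1 and TYK2 phosphorylate STAT2, which joins IRF9 in the complex ISGF3. ISGF3 binds the interferon-stimulated response element (ISRE) near the start of its target genes, and the products of those genes block viral entry, degrade or sequester viral RNA, and tag proteins with ISG15. In keratinocytes, the cells that squamous carcinomas come from, many of these genes keep a basal level without added interferon.

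The promoters of the genes that rose with the guides pooled are shown, except OASL, which has no entry, because the ISRE is what these genes are known to share. Of the 47 genes, 38 had an entry in the RefSeq promoter table (GRCh38.p14), which gives 300 bases, 250 before the annotated start and 50 after it. Each window is printed on the strand of its gene from 5′ to 3′, and capitals mark the ISRE core, searched as GAAA, any 2 bases and GAAA again, on either strand, so that it reads TTTC, any 2 bases and TTTC on the other. Where a gene had several starts, the window nearest the start of the transcript that GENCODE release 29 tags as principal is shown, and for CMPK2 a second window is added.
RSAD2 chr2:6877527-6877826 plus strand: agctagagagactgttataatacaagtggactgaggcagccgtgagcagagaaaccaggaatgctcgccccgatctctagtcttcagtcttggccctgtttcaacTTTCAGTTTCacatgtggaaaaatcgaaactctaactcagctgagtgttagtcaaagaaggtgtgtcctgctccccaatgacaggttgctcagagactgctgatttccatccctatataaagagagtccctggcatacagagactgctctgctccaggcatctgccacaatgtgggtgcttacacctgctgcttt
CMPK2 chr2:6866586-6866885 minus strand: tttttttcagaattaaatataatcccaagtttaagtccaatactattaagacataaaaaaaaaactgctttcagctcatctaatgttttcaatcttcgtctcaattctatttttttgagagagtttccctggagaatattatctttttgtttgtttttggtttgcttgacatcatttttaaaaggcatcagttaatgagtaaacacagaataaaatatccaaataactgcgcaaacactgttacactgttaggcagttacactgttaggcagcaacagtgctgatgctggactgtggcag
CMPK2 second start chr2:6865858-6866157 minus strand: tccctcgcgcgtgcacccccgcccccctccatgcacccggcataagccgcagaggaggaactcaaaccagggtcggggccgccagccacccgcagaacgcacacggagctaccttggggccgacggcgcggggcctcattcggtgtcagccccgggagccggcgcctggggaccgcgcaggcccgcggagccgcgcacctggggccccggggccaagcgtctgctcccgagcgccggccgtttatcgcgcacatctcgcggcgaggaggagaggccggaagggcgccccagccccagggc
HERC5 chr4:88456869-88457168 plus strand: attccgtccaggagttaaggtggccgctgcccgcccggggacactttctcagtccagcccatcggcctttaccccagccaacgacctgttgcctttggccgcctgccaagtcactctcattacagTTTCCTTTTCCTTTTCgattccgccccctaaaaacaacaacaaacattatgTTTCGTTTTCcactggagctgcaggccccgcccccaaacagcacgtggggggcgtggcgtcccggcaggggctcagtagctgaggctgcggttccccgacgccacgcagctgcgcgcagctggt
MX1 chr21:41420308-41420607 plus strand: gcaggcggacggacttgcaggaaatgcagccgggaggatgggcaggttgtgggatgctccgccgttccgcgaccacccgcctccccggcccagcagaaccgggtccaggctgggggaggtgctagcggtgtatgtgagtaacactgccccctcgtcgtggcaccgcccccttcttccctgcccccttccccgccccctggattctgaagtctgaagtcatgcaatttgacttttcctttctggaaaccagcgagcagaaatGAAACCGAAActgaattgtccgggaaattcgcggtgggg
IFIT3 chr10:89327747-89328046 plus strand: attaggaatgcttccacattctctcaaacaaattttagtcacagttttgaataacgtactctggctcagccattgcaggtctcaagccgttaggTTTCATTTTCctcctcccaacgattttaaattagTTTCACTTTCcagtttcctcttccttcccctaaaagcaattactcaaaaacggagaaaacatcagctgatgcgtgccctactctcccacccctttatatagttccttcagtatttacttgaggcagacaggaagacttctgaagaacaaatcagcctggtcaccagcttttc
GBP4 chr1:89198893-89199192 minus strand: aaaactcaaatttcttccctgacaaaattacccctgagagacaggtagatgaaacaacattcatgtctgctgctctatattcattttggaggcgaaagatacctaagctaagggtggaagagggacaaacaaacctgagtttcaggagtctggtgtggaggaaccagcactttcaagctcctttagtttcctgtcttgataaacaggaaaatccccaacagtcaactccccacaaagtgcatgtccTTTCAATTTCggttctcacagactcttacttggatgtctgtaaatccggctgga
In these windows the core began 145 bases before the start in RSAD2 and 4 bases before it in GBP4, and 11 bases after it in MX1. IFIT3 held 2 matches, which began 156 and 122 bases before the start, and HERC5 held 3, of which a pair overlap and the last began 74 bases before the start. No CMPK2 window held a match, nor did a further RSAD2 window at chr2:6865635-6865934, which says only that these letters are not in these windows. The search did not cover closer spacings. That RSAD2 window holds GAAACGAAA, with only C between the runs of GAAA. A CMPK2 window not printed here, chr2:6865770-6866069, holds the same letters as TTTCGTTTC. The lack of a match therefore does not show that CMPK2 has no such element.

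Further sites of 30 bases are shown for contrast, since their genes carry the core but were not called with the guides pooled. With sgEZH2-1 alone, IFIT1 was called higher and BST2 and IFI6 lower. The sites come from the windows chr1:1013247-1013546 (plus strand), chr10:89392373-89392672 (plus strand), chr19:17405581-17405880 (minus strand) and chr1:27672143-27672442 (minus strand). Capitals mark bases of any match. Each site is the one around the last match of its window, and IFI6 held 3 matches, which began 156, 115 and 93 bases before the start.
ISG15: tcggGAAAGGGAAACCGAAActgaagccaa
IFIT1: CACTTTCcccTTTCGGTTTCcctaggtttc
BST2: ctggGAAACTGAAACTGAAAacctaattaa
IFI6: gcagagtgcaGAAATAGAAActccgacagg
Over the set, 27 of 38 genes (71.1%) had at least 1 ISRE core in a window, against 1195 of 27305 genes (4.38%) in the whole RefSeq table. The GAS element, searched as TTCNNNGAA and known from genes that interferon gamma switches on, was in 14 of the 38 genes (36.8%) and in 9.38% of all genes.

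Library totals ran from 12.6 to 15.5 M counts, and levels are given in CPM, the reads of a gene relative to its library's total, after scaling of the totals by the trimmed mean of M values. Nothing in the labels tells whether replicate libraries came from separate cultures, and every p-value therefore measures a spread that may be technical. A control that clustered apart was left out by the authors, which may make the remaining controls look more alike than controls are. EZH2 itself was at 56.4, 56.3 and 48 CPM with sgEZH2-1 and 73.9, 67.6 and 65.1 CPM with sgEZH2-2, against 82.7 and 84.1 CPM in the controls. Every guide library was below both controls, but only the difference with sgEZH2-1 passed the test (log2 fold change -0.64, adjusted p = 0.000529), and with sgEZH2-2 it did not (-0.28, adjusted p = 0.0699). Of 10 keratinocyte markers all were detected, led by the keratin gene KRT5 at 1551 to 2106 CPM, although KRT14, its usual partner, stood at only 0.236 to 1.60 CPM. The sum of these markers was 2892 to 3312 CPM with sgEZH2-1 and 2812 to 2899 CPM with sgEZH2-2, against 3299.8 to 3424 CPM in the controls. With sgEZH2-1, KRT17, KRT6A and CDH1 rose (log2 fold changes of 0.82, 0.38 and 0.18) and TP63, a factor of basal keratinocytes, fell (-1.01, adjusted p = 1.27e-05). With sgEZH2-2, KRT5, DSC3, DSG3 and CDH1 fell (from -0.36 for DSC3 to -0.22 for CDH1) and none rose. The part of these markers in the results was not tested. Of 12 leukocyte markers, 7 were at 0 in every library, among them CD3E, CD3D, CD2, MS4A1, FCGR3A and TYROBP, and PTPRC was at 0.140 to 0.414 CPM. The sum of the list was 12.7 to 16.4 CPM with sgEZH2-1, 10.5 to 12.5 with sgEZH2-2 and 13 to 13.2 in the controls. Most of that sum was CD68, at 9.36 to 15.1 CPM, while CD14 was at 0.137 to 0.787 CPM. Neither was called against the controls. In bulk RNA, more cells that express a gene and more RNA of it per cell cannot be told apart.

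In the whole set the summed level was 2759 ± 68.1 CPM with sgEZH2-1 and 2820 ± 39 CPM with sgEZH2-2 (SD, n = 3 each), against 2406 ± 16.8 CPM in the controls (SD, n = 2). Single genes differed far more from each other than between groups. Per kilobase of exon, IFITM3, a membrane protein that blocks viral entry, stood highest at 247 CPM per kb with sgEZH2-1, 313 with sgEZH2-2 and 224 in the controls. IFITM1, IFIT3 and IFIT2 held the next places in every group, and IFITM1 and IFIT3 changed places with sgEZH2-1 (54.6 CPM per kb for IFITM1 and 60.6 for IFIT3). At the low end, MX2 and IFI27, well-known targets elsewhere, had 1 to 9 counts per library and were too low to be tested, which left 45 genes. IRF9 stood at 0.257 CPM per kb with sgEZH2-1, 0.407 with sgEZH2-2 and 0.234 in the controls, and XAF1, IFI44L and ISG20 were lower than that in each group.

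**Figure D1:**
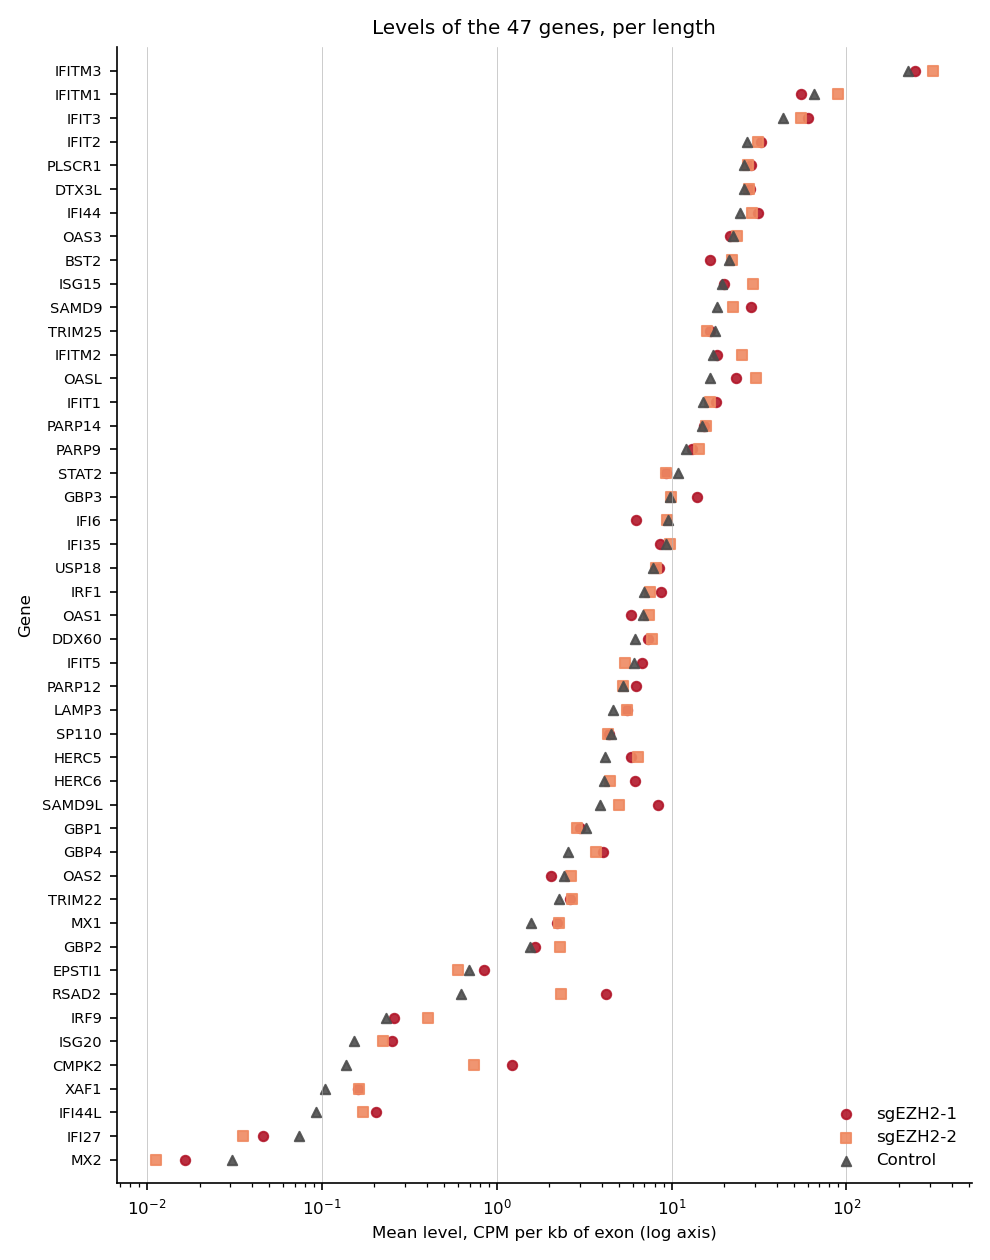
Mean level of each of the 47 genes in CPM per kilobase of exon (log axis), for sgEZH2-1 (circles, n = 3), sgEZH2-2 (squares, n = 3) and Control (triangles, n = 2), ordered by the controls. RSAD2 was at rank 33 with sgEZH2-1 and rank 37 with sgEZH2-2, against rank 40 in the controls, and IFITM3 led in all 3 groups.

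RSAD2, or viperin, which makes a nucleotide that stops viral RNA synthesis, was among the low genes whose place in that order differed between groups. It stood at 4.22 CPM per kb with sgEZH2-1 and 2.34 with sgEZH2-2, against 0.626 in the controls, which is rank 33, rank 37 and rank 40 of the 47 genes. CMPK2, a nucleotide kinase of mitochondria, was at 1.23 CPM per kb with sgEZH2-1, 0.745 with sgEZH2-2 and 0.138 in the controls.

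With the guides pooled, 7 of the 45 tested genes rose and none fell at an adjusted p of at most 0.05 in edgeR's quasi-likelihood test. That test took the 6 guide libraries as replicates, although they come from only 2 guides. Over all 13124 genes tested, 3.76% rose and 0.594% fell. The 7 were RSAD2, CMPK2, HERC5, MX1, IFIT3, OASL and GBP4. The median log2 fold change of the 45 genes was 0.25, against -0.0043 over all genes tested, with 35 values above 0 and 10 below. All 6 guide libraries lay above both controls for 20 genes and below both for 2, STAT2 and TRIM25, where 10.2% and 9.77% of all genes tested did so. In the fit of 3 groups, where a difference between the guides does not count as spread, the mean of both guides gave 17 higher and none lower, against 7.7% and 4.59% of all genes tested. The 7 calls lean on having both controls: without the first control only CMPK2 was called, and without the second none of the 7, while without any single guide library 7 were called.

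RSAD2 was at 23.1, 17.7 and 20.4 CPM with sgEZH2-1 and 11.9, 9.83 and 12.3 CPM with sgEZH2-2, against 3.05 and 3.0 CPM in the controls. Every guide library was well above both controls, and the sgEZH2-1 libraries were all above the sgEZH2-2 libraries. The pooled log2 fold change was 2.39 ± 0.37 (standard error), or 5.23-fold, with an adjusted p of 0.00511. CMPK2 was at 5.33, 4.99 and 5.53 CPM with sgEZH2-1 and 2.49, 3.78 and 3.36 CPM with sgEZH2-2, against 0.994 and 0.196 CPM in the controls. The groups did not overlap, and the controls rest on few reads, 14 counts in the first library and 3 in the second. Its pooled log2 fold change was 2.85 ± 0.52 (adjusted p = 0.0123).

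The other 5 genes moved by less than 2-fold. HERC5, the ligase that attaches ISG15 to newly made proteins, was at 29, 28.4 and 26.5 CPM with sgEZH2-1 and 30.7, 28.6 and 32 CPM with sgEZH2-2, against 20.8 and 18.9 CPM in the controls (log2 fold change 0.56 ± 0.10, adjusted p = 0.00879). The 2 guides gave similar levels, and both lay above the controls. MX1, a dynamin-like GTPase that traps viral nucleocapsids, was at 18.8, 19.7 and 18.7 CPM with sgEZH2-1 and 19.9, 18.6 and 20.4 CPM with sgEZH2-2, against 12.8 and 14.2 CPM in the controls (log2 fold change 0.52 ± 0.09, adjusted p = 0.0102). IFIT3, a partner of IFIT1 in binding viral RNA caps, was at 167, 161 and 152 CPM with sgEZH2-1 and 148, 136 and 150.2 CPM with sgEZH2-2, against 114 and 117 CPM in the controls (log2 fold change 0.40 ± 0.08, adjusted p = 0.0164). In both genes each guide library was higher than each control.

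OASL, an inactive relative of the oligoadenylate synthetases that enhances RNA sensing by RIG-I, was at 87.6, 80.5 and 79.2 CPM with sgEZH2-1 and 109, 101 and 108 CPM with sgEZH2-2, against 60.4 and 55.6 CPM in the controls (log2 fold change 0.70 ± 0.14, adjusted p = 0.0193). Here the sgEZH2-2 libraries were the highest, the reverse of RSAD2. GBP4, a GTPase of the guanylate-binding family, was at 25.1, 25.2 and 24.6 CPM with sgEZH2-1 and 24.4, 20.8 and 23 CPM with sgEZH2-2, against 15.7 and 15.7 CPM in the controls (log2 fold change 0.60 ± 0.10, adjusted p = 0.00699). Its controls were nearly equal and lay below every guide library. Of the transcript sequence of GBP4, 10.9% of 31-base words also occur in transcripts of other genes, mainly GBP7, and for the other 6 genes the share was 0 to 6.19%.

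**Figure D2:**
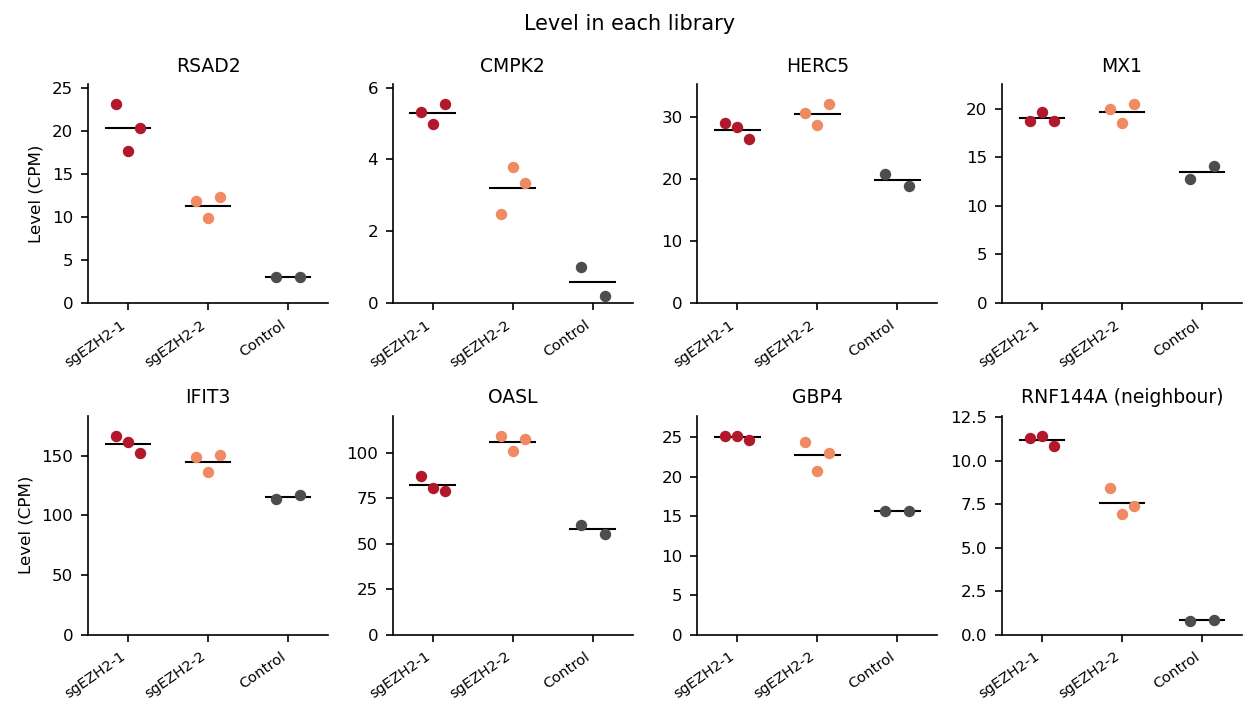
Level in CPM of each library (points) with the mean of the group (line) for the 7 genes that rose with the guides pooled and for RNF144A, the gene next to RSAD2; sgEZH2-1 and sgEZH2-2 have 3 libraries each and Control 2, and each axis starts at 0. In all 8 panels every guide library lies above both controls.

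RSAD2 and CMPK2 lie head to head on chromosome 2. In GENCODE release 29 (GRCh38) RSAD2 spans chr2:6865806-6898239 on the plus strand and CMPK2 spans chr2:6840570-6866635 on the minus strand, so their exons overlap over 0.290% of the exon bases of RSAD2. The windows at their principal starts hold few CpG pairs, 4 for RSAD2 and 2 for CMPK2, against a median of 14 over all promoters. Where the genes meet, the further RSAD2 window holds 45 and the second CMPK2 window printed above, which overlaps it, holds 38. The only other gene of the table within 500 kb of the pair was RNF144A, which encodes a ubiquitin ligase and starts 19.2 kb beyond RSAD2 on the same strand; it was named after its values were seen. RNF144A was at 11.3, 11.4 and 10.9 CPM with sgEZH2-1 and 8.42, 6.92 and 7.40 CPM with sgEZH2-2, against 0.781 and 0.848 CPM in the controls. The log2 fold change of this neighbour came to 3.76 ± 0.18 with sgEZH2-1 (adjusted p = 1.41e-06), 3.21 ± 0.19 with sgEZH2-2 (adjusted p = 1.16e-05) and 3.51 ± 0.31 pooled (adjusted p = 0.000308). All 3 genes of this stretch thus rose with both guides, and all 3 were higher with sgEZH2-1 than with sgEZH2-2, although for CMPK2 that difference did not pass the test. RNF144A is not counted among interferon targets here, and it rose by more than RSAD2 on the log2 scale. Near the other 5 genes that rose with the guides pooled, none of the tested neighbours within 500 kb rose, with 9 tested near HERC5, 5 near MX1, 8 near IFIT3, 14 near OASL and 8 near GBP4, and 1 of those near HERC5, ABCG2, fell. Over all genes tested 3.76% rose and 0.594% fell with the guides pooled, so few calls are found among so few genes anywhere.

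With sgEZH2-1 alone, 16 of the 45 genes rose and 3 fell, against 11.3% higher and 9.51% lower over all genes tested. The comparison uses the same 2 controls as that of sgEZH2-2, so the results of the guides are not independent. The median log2 fold change of the set was 0.21. RSAD2 (2.75 ± 0.17, adjusted p = 4.96e-06) and CMPK2 (3.17 ± 0.40, adjusted p = 0.000467) had the largest log2 fold changes. Beside the 7 genes above, 9 rose with this guide: SAMD9L, SAMD9, HERC6, GBP3, IFI44L, IFI44, IFIT2, IFIT1 and IRF1.

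SAMD9L and its neighbour SAMD9, cytoplasmic proteins that restrict poxviruses, were among the clearest of these. SAMD9L was at 61.7, 57.5 and 59.1 CPM with sgEZH2-1 and 35.6, 34.6 and 36.8 CPM with sgEZH2-2, against 25.6 and 30.2 CPM in the controls, its log2 fold change for sgEZH2-1 being 1.09 ± 0.08 (adjusted p = 1.86e-05). SAMD9 was at 208, 193 and 183 CPM with sgEZH2-1 and 162, 151 and 148 CPM with sgEZH2-2, against 113 and 137 CPM in the controls, with 0.64 ± 0.09 for sgEZH2-1 (adjusted p = 0.000672). In both genes the 3 groups formed separate steps, highest with sgEZH2-1 and lowest in the controls. HERC6, a relative of HERC5 that attaches ISG15 in mice, was at 38.6, 32.8 and 35.5 CPM with sgEZH2-1 and 24.9, 25.4 and 26.8 CPM with sgEZH2-2, against 21.8 and 25.7 CPM in the controls, and only the sgEZH2-1 libraries stood clear of the controls (log2 fold change 0.58 ± 0.10, adjusted p = 0.00233). GBP3, a further guanylate-binding protein, was at 62.9, 59 and 59.2 CPM with sgEZH2-1 and 41.6, 44.6 and 42.2 CPM with sgEZH2-2, against 40.8 and 43.1 CPM in the controls (log2 fold change for sgEZH2-1 0.53 ± 0.07, adjusted p = 0.000522). The sgEZH2-2 libraries of GBP3 overlapped the controls.

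IFI44L and IFI44, neighbouring genes on chromosome 1, rose with sgEZH2-1 at very different levels. IFI44L was at 2.01, 2.33 and 1.96 CPM with sgEZH2-1 and 2.14, 1.42 and 1.75 CPM with sgEZH2-2, against 0.923 and 0.978 CPM in the controls (log2 fold change for sgEZH2-1 1.14 ± 0.28, adjusted p = 0.0171), and IFI44 was at 69.9, 63.1 and 58.8 CPM with sgEZH2-1 and 63.2, 56 and 58 CPM with sgEZH2-2, against 49.8 and 50.2 CPM in the controls (0.35 ± 0.08, adjusted p = 0.0151). All guide libraries of both genes were above both controls. IFIT2 was at 143, 128 and 129 CPM with sgEZH2-1 and 126, 126 and 132 CPM with sgEZH2-2, against 112 and 108 CPM in the controls (0.27 ± 0.06, adjusted p = 0.0139), and IFIT1, which binds the caps of viral RNA, was at 84.6, 86.5 and 78.1 CPM with sgEZH2-1 and 74.1, 75.5 and 80.4 CPM with sgEZH2-2, against 69.7 and 69.97 CPM in the controls (0.25 ± 0.07, adjusted p = 0.0238). Again no guide library overlapped the controls. IRF1, a factor induced by interferons that binds the same element, was at 65.4, 69.4 and 69 CPM with sgEZH2-1 and 58.1, 54.7 and 63.8 CPM with sgEZH2-2, against 58.9 and 49.9 CPM in the controls (0.32 ± 0.09, adjusted p = 0.0284), where 22% of its exon bases overlap genes of the opposite strand. Since the strand setting of the counting is not given, reads of such partners cannot be told apart. The calls of IFI44L, IFI44, IFIT2, IFIT1 and IRF1 were each lost without at least 1 of the libraries, which for the first 4 includes either control and for IRF1 the second control or the second or the third sgEZH2-1 library. The call of IFI44L was also lost with DESeq2, and that of IFIT1 in a fit of this guide and the controls alone. Those of RSAD2, CMPK2, HERC5, HERC6, MX1, IFIT3, OASL, GBP3, GBP4, SAMD9 and SAMD9L held without any single library.

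The 3 genes that fell with sgEZH2-1 were BST2, IFI6 and IFITM1. They are 6.67% of the tested genes of the set, no more than the 9.51% over all genes tested. BST2, or tetherin, which holds budding virus at the cell surface, was at 19.6, 18.3 and 17.7 CPM with sgEZH2-1 and 25.5, 24.1 and 25.3 CPM with sgEZH2-2, against 24.8 and 23 CPM in the controls (log2 fold change for sgEZH2-1 -0.36 ± 0.08, adjusted p = 0.0119). IFI6, a small protein that blocks cell death and flavivirus replication, was at 4.79, 5.47 and 6.02 CPM with sgEZH2-1 and 6.77, 8.65 and 9.08 CPM with sgEZH2-2, against 7.60 and 8.87 CPM in the controls (-0.60 ± 0.17, adjusted p = 0.0300). The sgEZH2-1 libraries were the lowest in both, and those of sgEZH2-2 overlapped the controls. IFITM1 was at 61.2, 55 and 60.8 CPM with sgEZH2-1 and 93.5, 100.2 and 97.6 CPM with sgEZH2-2, against 74.6 and 66.5 CPM in the controls, below the controls with sgEZH2-1 (-0.26 ± 0.07, adjusted p = 0.0344) and above them with sgEZH2-2. All 3 of these falls were lost without the first control or without the second sgEZH2-1 library, that of IFI6 also without the first sgEZH2-1 library or the second control, and that of IFITM1 also without the third sgEZH2-1 library or the second or the third sgEZH2-2 library. IFI6 was not called with DESeq2, nor IFITM1 in a fit of this guide and the controls alone.

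**Figure D3:**
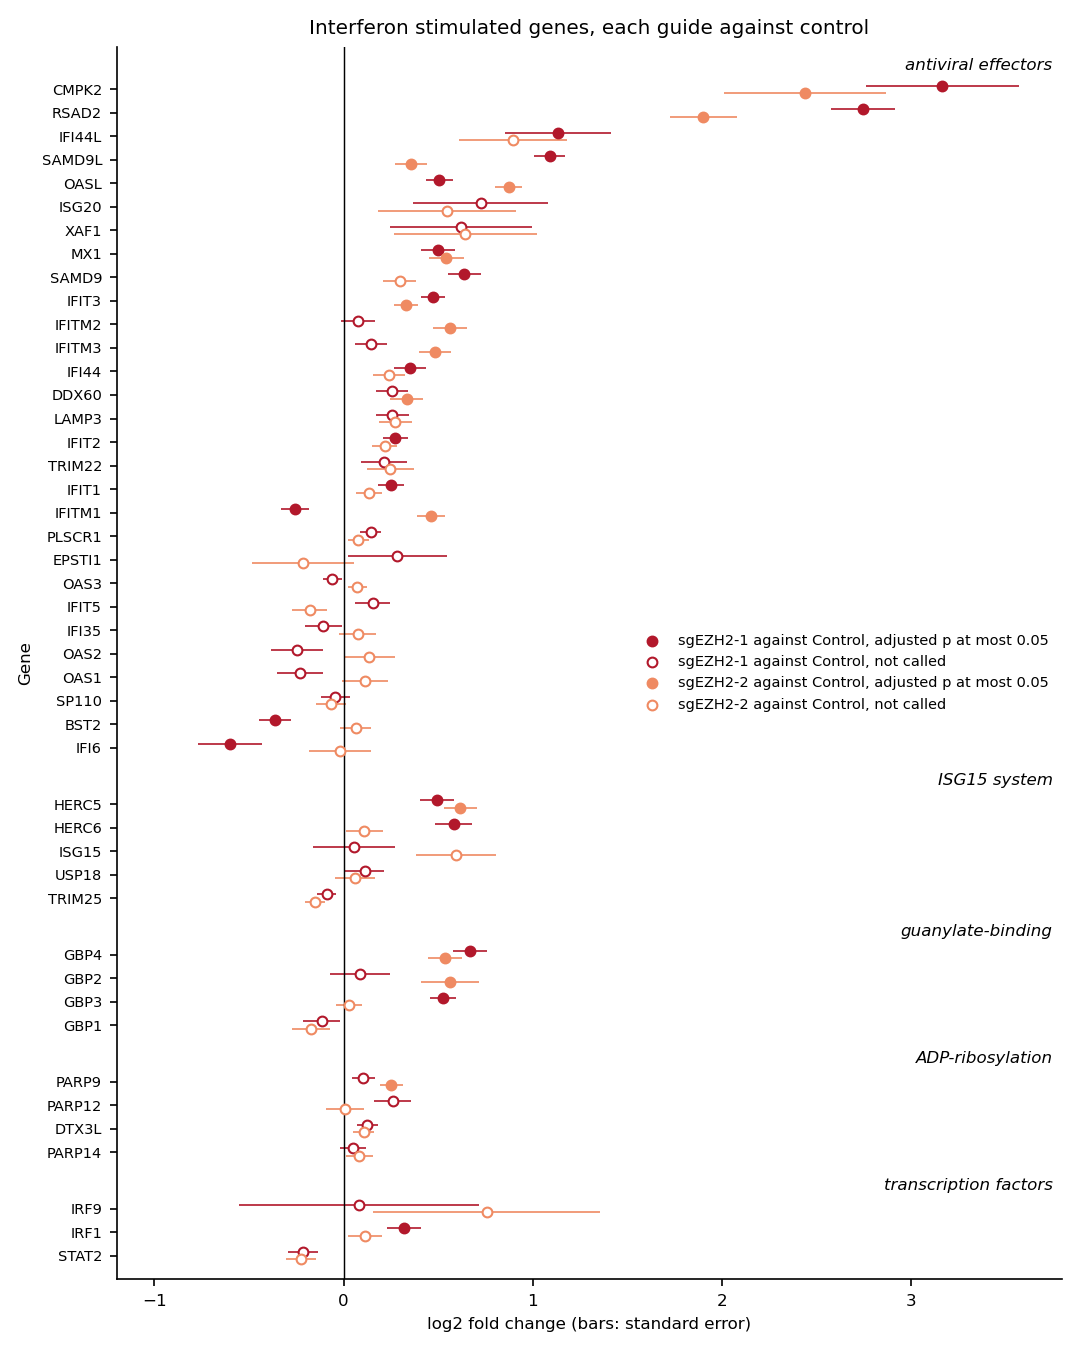
Log2 fold change of the 45 tested genes with sgEZH2-1 (dark red) and sgEZH2-2 (orange) against Control, grouped by role and ordered by the pooled value; bars are standard errors and filled points have an adjusted p of at most 0.05. CMPK2 and RSAD2 stand apart at 1.90 to 3.17, and all other values lie between -0.60 and 1.14.

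With sgEZH2-2 alone, 14 of the 45 genes rose and none fell, against 6.18% higher and 2.5% lower over all genes tested, and the median log2 fold change of the set was 0.24. Beside the 7 genes of the pooled comparison, these were IFITM1, IFITM2, IFITM3, DDX60, GBP2, PARP9 and SAMD9L. The genes that rose with both guides were the 7 and SAMD9L, or 50% of the 16 with sgEZH2-1 and 57.1% of the 14 with sgEZH2-2. The overlap over all genes tested was not counted, and the guides share their controls, so these shares are not read as a trait of the set.

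The IFITM genes, neighbours on chromosome 11, rose together with sgEZH2-2. For IFITM1 the value was 0.46 ± 0.07 on the log2 scale (adjusted p = 0.00376). IFITM2 was at 26.9, 29.4 and 27.6 CPM with sgEZH2-1 and 35.5, 40.4 and 41.9 CPM with sgEZH2-2, against 26.2 and 26.9 CPM in the controls (0.56 ± 0.09 for sgEZH2-2, adjusted p = 0.00323), and IFITM3 was at 313, 340.4 and 348 CPM with sgEZH2-1 and 375, 457 and 434 CPM with sgEZH2-2, against 317 and 287 CPM in the controls (0.48 ± 0.09, adjusted p = 0.00675). Every sgEZH2-2 library was above both controls in the 3 genes. Of their 31-base words, 35.3% (IFITM1), 45.2% (IFITM2) and 36.4% (IFITM3) occur in other transcripts, mainly each other's, so the split of reads among them is uncertain. The call of IFITM3 was lost without the second control.

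GBP2, an antimicrobial member of the guanylate-binding family, was at 12.7, 8.69 and 9.73 CPM with sgEZH2-1 and 14.2, 13.5 and 15.5 CPM with sgEZH2-2, against 9.59 and 9.85 CPM in the controls (0.56 ± 0.15 for sgEZH2-2, adjusted p = 0.0490). DDX60, a helicase linked to RNA sensing, was at 53.9, 46.7 and 48.4 CPM with sgEZH2-1 and 55.2, 53.4 and 48.5 CPM with sgEZH2-2, against 40.5 and 42.6 CPM in the controls (0.33 ± 0.09, adjusted p = 0.0382). PARP9, a macrodomain protein that works with the ligase DTX3L, was at 124, 113 and 112 CPM with sgEZH2-1 and 125, 130.0 and 132 CPM with sgEZH2-2, against 108 and 109 CPM in the controls (0.25 ± 0.06, adjusted p = 0.0309). In each of these genes the sgEZH2-2 libraries lay above both controls, and 1 of the 3 sgEZH2-1 libraries of GBP2 lay below them both. SAMD9L had 0.35 ± 0.08 with sgEZH2-2 (adjusted p = 0.0285). These 4 calls were lost without the first control and also without any of several guide libraries, and those of MX1 and IFIT3 without the first control. Those of RSAD2 (1.90 ± 0.18, adjusted p = 0.000130), CMPK2, HERC5, OASL, GBP4, IFITM1 and IFITM2 held without any single library.

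Several genes came near the threshold with sgEZH2-2 without passing. The log2 fold changes were 0.30 ± 0.09 for SAMD9 (adjusted p = 0.0630) and, for IFIT2, 0.22 ± 0.06 (adjusted p = 0.0683). LAMP3, a lysosomal membrane protein, was at 21.2, 19.7 and 22.5 CPM with sgEZH2-1 and 20.7, 21.4 and 22 CPM with sgEZH2-2, against 17.3 and 18 CPM in the controls (0.27 ± 0.09 for sgEZH2-2, adjusted p = 0.0853). Its guide libraries all lay above the controls with either guide.

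The guides differed from each other in 15 genes, 6 higher and 9 lower with sgEZH2-1 than with sgEZH2-2, against 10.4% and 11.5% of all genes tested. In shares of the set this is 13.3% higher and 20% lower. Higher with sgEZH2-1 were RSAD2 (log2 difference 0.84 ± 0.12, adjusted p = 0.00124), SAMD9L (0.73 ± 0.07, adjusted p = 0.000131), GBP3 (0.50 ± 0.06, adjusted p = 0.000467), HERC6 (0.47 ± 0.09, adjusted p = 0.00440), SAMD9 (0.34 ± 0.08, adjusted p = 0.0112) and IFIT5 (0.33 ± 0.08, adjusted p = 0.0172). For the first 4 the libraries of the guides did not overlap and the call held without any single library. That of SAMD9 was lost without the third sgEZH2-2 library, and that of IFIT5 without that library, the second sgEZH2-2 library or the second sgEZH2-1 library.

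Lower with sgEZH2-1 were IFITM1 (log2 difference -0.72 ± 0.07, adjusted p = 9.76e-05), IFITM2 (-0.49 ± 0.08, adjusted p = 0.00216), OASL (-0.37 ± 0.06, adjusted p = 0.00280), BST2 (-0.43 ± 0.08, adjusted p = 0.00340) and IFITM3 (-0.34 ± 0.08, adjusted p = 0.0112). The call of IFITM3 was lost without the second or the third sgEZH2-2 library. IFI6, GBP2, OAS1 and OAS2 were also lower, with log2 differences of -0.58, -0.48, -0.34 and -0.38, and these calls were lost without 1 or another of the guide libraries. EZH2 itself was lower with sgEZH2-1 than with sgEZH2-2 (log2 difference -0.36 ± 0.08, adjusted p = 0.00844). CDH5, an endothelial marker, was also lower than in the controls with sgEZH2-1 (log2 fold change -1.19, adjusted p = 1.825e-06) and with sgEZH2-2 (-0.24, adjusted p = 0.0364). The sum of its list, nearly all CDH5, was 76.6 to 81.7 CPM with sgEZH2-1, 143 to 160.4 with sgEZH2-2 and 177 to 184 in the controls. KDR of that list was at 0 everywhere. For the fibroblast list, nearly all COL1A1, the sum was 5.02 to 8.96 CPM with sgEZH2-1, 11 to 14.1 with sgEZH2-2 and 6.13 to 7.24 in the controls. The part of these markers in the differences between the guides was not tested.

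**Figure D4:**
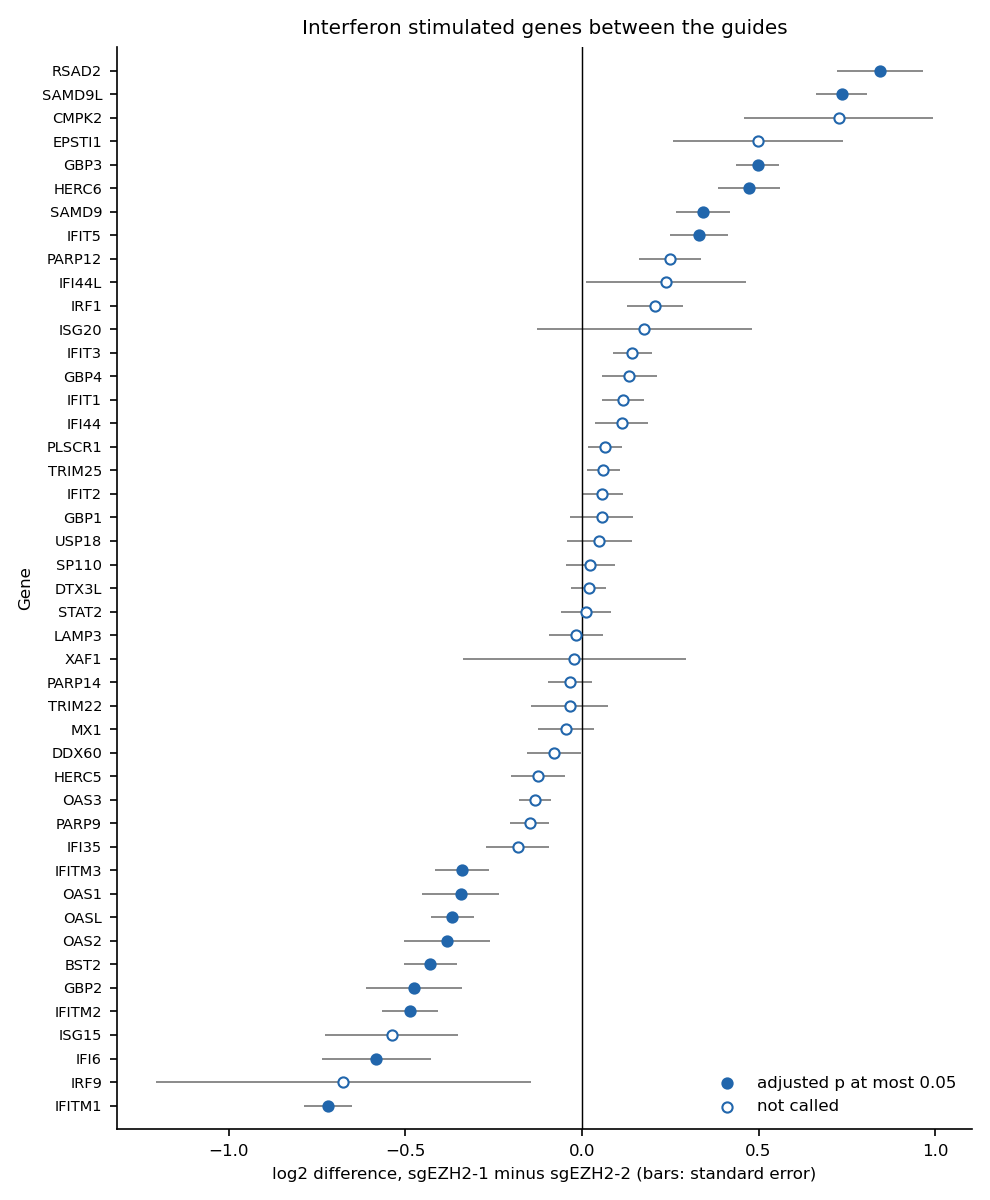
Log2 difference of sgEZH2-1 minus sgEZH2-2 for the 45 tested genes (points) with standard errors (bars), ordered by size; filled points have an adjusted p of at most 0.05. RSAD2 is at the top with 0.84 and IFITM1 at the bottom with -0.72.

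Within the IFIT and GBP clusters some genes were called and others were not. In the IFIT cluster on chromosome 10, IFIT3, IFIT2 and IFIT1 had pooled log2 fold changes of 0.40, 0.25 and 0.19, of which only the first passed the test. IFIT5, which binds uncapped RNA, had 0.15 ± 0.09 with sgEZH2-1 and -0.18 ± 0.09 with sgEZH2-2, neither called. In the GBP cluster on chromosome 1, GBP4 rose with both guides, GBP3 with sgEZH2-1 and GBP2 with sgEZH2-2. GBP1 was at 15.6, 14.8 and 14.2 CPM with sgEZH2-1 and 15.4, 13.9 and 13.6 CPM with sgEZH2-2, against 16.7 and 15.6 CPM in the controls and was not called with either guide.

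The oligoadenylate synthetases OAS1, OAS2 and OAS3, which make the short messenger that activates RNase L, showed no call against the controls. OAS1 was at 34.4, 25.1 and 27.2 CPM with sgEZH2-1 and 36.7, 38.9 and 34.2 CPM with sgEZH2-2, against 33.6 and 34.1 CPM in the controls (pooled log2 fold change -0.05 ± 0.16, adjusted p = 0.926). The sgEZH2-1 libraries spread widely and overlapped the controls, which were nearly equal. OAS3 was at 178, 183 and 172 CPM with sgEZH2-1 and 191, 199.6 and 195 CPM with sgEZH2-2, against 189.8 and 181 CPM in the controls (0.01 ± 0.07, adjusted p = 0.972), and OAS2 had a pooled value of -0.04 ± 0.17 (adjusted p = 0.943). Their relative OASL, which lies elsewhere on chromosome 12, rose with both guides.

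Of the ISG15 system, HERC5 and HERC6 rose as described, and the others were not called. ISG15, the ubiquitin-like protein itself, was at 13, 20.7 and 22.9 CPM with sgEZH2-1 and 24, 29.3 and 29.3 CPM with sgEZH2-2, against 21.1 and 15.4 CPM in the controls. With sgEZH2-2 all libraries lay above both controls (log2 fold change 0.59 ± 0.21, adjusted p = 0.122), and with sgEZH2-1 the first library lay below them (0.06 ± 0.22, adjusted p = 0.886). That value of sgEZH2-2 passed the test without the first sgEZH2-1 library and in a fit of sgEZH2-2 and the controls alone. USP18, which removes ISG15 and damps the receptor, was at 18.8, 18.5 and 16.7 CPM with sgEZH2-1 and 17.7, 15.7 and 18.7 CPM with sgEZH2-2, against 17.5 and 15.8 CPM in the controls (pooled log2 fold change 0.09 ± 0.10, adjusted p = 0.747), and 30.8% of its 31-base words occur in other transcripts, mainly USP41. TRIM25, a ubiquitin ligase that activates RIG-I, was at 153, 161 and 161 CPM with sgEZH2-1 and 149, 151 and 156 CPM with sgEZH2-2, against 167 and 170.0 CPM in the controls (-0.12 ± 0.06, adjusted p = 0.332). The guide libraries of TRIM25 were all below the controls.

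Of the factors of ISGF3 in the set, STAT2 and IRF9, neither was called. STAT2 was at 62.9, 54.5 and 53.8 CPM with sgEZH2-1 and 54.4, 59.2 and 56.1 CPM with sgEZH2-2, against 67 and 65.5 CPM in the controls (pooled log2 fold change -0.22 ± 0.08, adjusted p = 0.164), with every guide library below both controls but no call. IRF9 was at 1.47, 0.547 and 0.910 CPM with sgEZH2-1 and 1.45, 1.97 and 1.22 CPM with sgEZH2-2, against 0.213 and 1.57 CPM in the controls, values too low and too scattered to order the groups, and 49.5% of its 31-base words occur in other transcripts, mainly the overlapping gene AL136295.5. The remaining genes, PARP12, PARP14, DTX3L, PLSCR1, XAF1, ISG20, EPSTI1, SP110, TRIM22 and IFI35, were not called in any comparison with the controls, and their pooled log2 fold changes ran from -0.05 (SP110) to 0.64 (ISG20). In all, 24 of the 45 tested genes were called in at least 1 comparison with the controls and 21 in none. The same share over all genes tested was not counted. It is no less than that with sgEZH2-1 alone, 11.3% higher and 9.51% lower, so the 24 are not read as a trait of the set. A p that misses the threshold does not show that a gene was unchanged.

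Outside the set, the upstream layers of the pathway held few tested genes, so counts of calls there cannot show a difference from all genes. Over all genes tested, 3.76% rose and 0.594% fell with the guides pooled. The shares were 11.3% and 9.51% with sgEZH2-1, and 6.18% and 2.5% with sgEZH2-2. Of 21 interferon ligands, 15 were at 0 in every library, among them IFNB1, IFNK and IFNG, where a count of 0 allows up to 3 counts per library, or 0.196 to 0.236 CPM. Only IFNE, an epithelial type I interferon, could be tested, at 0.618, 0.205 and 0.350 CPM with sgEZH2-1 and 0.690, 0.236 and 0.153 CPM with sgEZH2-2, against 0.426 and 0.717 CPM in the controls (pooled log2 fold change -0.60 ± 0.56, adjusted p = 0.679). The other 5 detected ligands had 13 counts in all over the 8 libraries. Of 9 receptor and kinase genes, none was called in a comparison with the controls. IFNAR1 was at 58.2, 55.3 and 49.2 CPM with sgEZH2-1 and 55.2, 54.9 and 55.5 CPM with sgEZH2-2, against 45 and 62.4 CPM in the controls, and IFNAR2 was at 17.3, 15.1 and 17.1 CPM with sgEZH2-1 and 18.8, 17.4 and 19.98 CPM with sgEZH2-2, against 18.7 and 15.9 CPM in the controls, with overlapping groups in both.

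Among further factors, IRF7, which amplifies interferon production, was at 1.85, 3.08 and 3.64 CPM with sgEZH2-1 and 3.52, 7.08 and 3.89 CPM with sgEZH2-2, against 3.27 and 3.65 CPM in the controls and was not called. Of 6 inhibitors, SOCS3, which blocks JAK kinases, was at 19.4, 21.8 and 18.7 CPM with sgEZH2-1 and 41.8, 44.2 and 43.1 CPM with sgEZH2-2, against 22.8 and 18.6 CPM in the controls. It rose with sgEZH2-2 (log2 fold change 1.06 ± 0.10, adjusted p = 0.000175), with sgEZH2-1 overlapping the controls. PTPN6, a phosphatase, fell with sgEZH2-1 (-0.39 ± 0.07, adjusted p = 0.00372).

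Of 29 tested interferon targets outside the set, 2 rose and none fell with the guides pooled, 6 rose and 3 fell with sgEZH2-1, and 5 rose and none fell with sgEZH2-2, with a pooled median log2 fold change of 0.044. In shares these are 6.9% pooled, 20.7% higher and 10.3% lower with sgEZH2-1, and 17.2% higher with sgEZH2-2, against 3.76%, 11.3%, 9.51% and 6.18% of all genes tested, so the falls with sgEZH2-1 were near the share over all genes. The 2 that rose with the guides pooled were TDRD7, which restrains autophagy used by viruses, at 58.2, 58.6 and 52.7 CPM with sgEZH2-1 and 58.4, 56 and 57.9 CPM with sgEZH2-2, against 42.4 and 45.5 CPM in the controls (0.37 ± 0.07, adjusted p = 0.0158), and DDX58, which encodes RIG-I, at 51.4, 51.9 and 48.9 CPM with sgEZH2-1 and 48.7, 42.2 and 45 CPM with sgEZH2-2, against 37.4 and 36.2 CPM in the controls (0.38 ± 0.09, adjusted p = 0.0473). Each guide library lay above both controls in both genes. B2M, the light chain of class I molecules, stood at 0.30 ± 0.08 on the log2 scale with the guides pooled (adjusted p = 0.0608). Of 8 tested targets of interferon gamma, PSMB9, a subunit of the immunoproteasome (0.34 ± 0.08, adjusted p = 0.0478), and HLA-E (0.31 ± 0.07, adjusted p = 0.0489) rose with the guides pooled, and TAP1 had 0.18 ± 0.08 (adjusted p = 0.305). These 2 calls, 25% of the 8 against 3.76% of all genes tested, lie close to the threshold. With each guide alone 37.5% of the 8 rose, against 11.3% with sgEZH2-1 and 6.18% with sgEZH2-2 over all genes tested. The chemokine gene CXCL9 was at 0 in every library.

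**Figure D5:**
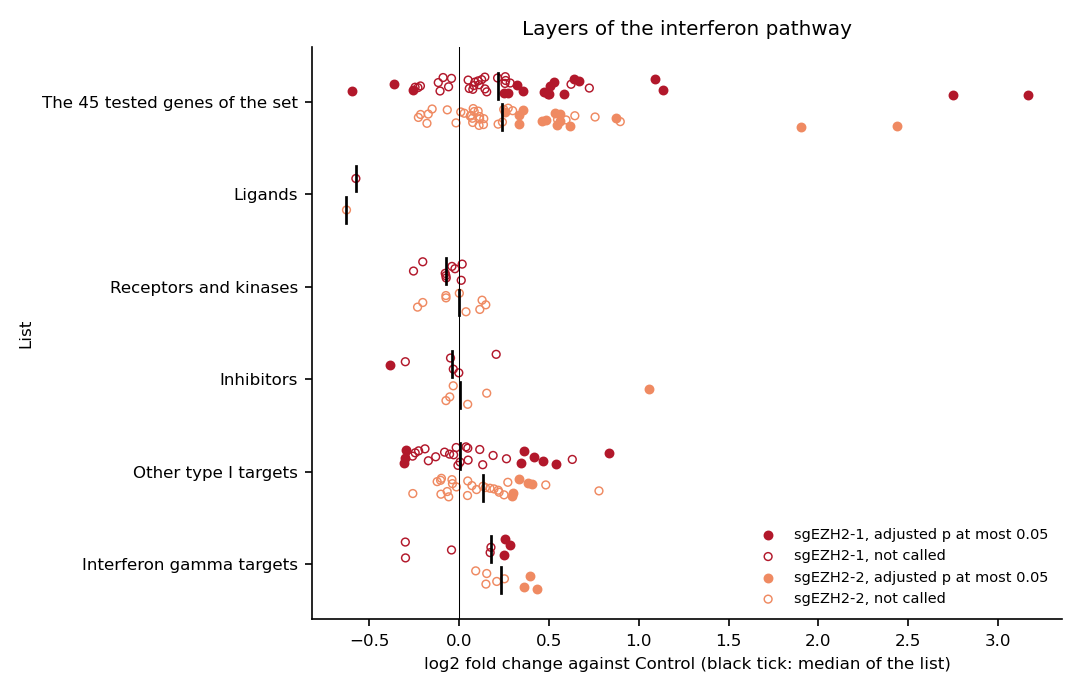
Log2 fold change against Control with sgEZH2-1 (upper points of each pair) and sgEZH2-2 (lower points) for the 45 tested genes of the set and for 5 lists of pathway genes outside it; points are genes, filled where the adjusted p is at most 0.05, and black ticks are medians. Medians of the set are 0.21 and 0.24, and no receptor or kinase gene is filled.

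The ISRE core was found both in genes that were called higher and in genes that were not. Among tested genes with a promoter entry, 5 of the 6 that rose with the guides pooled had the core, and so did 21 of the other 31. With sgEZH2-1 the core was in 10 of 14 genes that rose and 16 of the other 23, and with sgEZH2-2 in 9 of 11 and 17 of the other 26. These counts are a description, and a match is not a measured binding site. They also depend on the spacing searched. CMPK2, OAS1, XAF1 and TRIM25 count as lacking the core, yet a window of each holds GAAACGAAA on 1 strand or the other.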

How the data were processed

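The values are raw read counts per gene and library, as the authors deposited them, with no normalization. FastQC, STAR and DESeq with build hg38 are named per the submitters' processing notes, and the kit was TruSeq Stranded mRNA per the labels' protocols. The sources used here name no counting tool, annotation or strand setting. The columns name the group but no replicate number, so libraries are called by their order within a group.

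Genes were kept by filterByExpr of edgeR at a minimum count of 10, which left 13124 of 20294. Each adjusted p comes from the two-sided quasi-likelihood test of edgeR 4.0.16 (limma 3.58.1, R 4.3.3), adjusted after Benjamini and Hochberg over all genes tested, at a threshold of 0.05. The pooled comparison set 6 guide libraries against 2 controls. It took each library as a replicate, although the 6 come from only 2 guides, so its p-values and standard errors do not treat the guide as the unit. The rest were contrasts within 1 fit of 3 groups. The F statistic gave the standard errors. DESeq2 1.42.0 was an alternative. No library repeated another within sampling noise, and the code was tested on simulated data. Exon lengths, shared 31-base words and neighbours come from GENCODE release 29, and promoters from RefSeq (GRCh38.p14). The 9 genes without a promoter entry were MX2, IFIT2, IFITM2, OAS2, OASL, USP18, GBP2, TRIM22 and LAMP3. The listed pathway genes C19orf66 and WARS were not matched, and some listed genes are not reported here.

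Named were, by rule, every gene called with the guides pooled, up to 12 more per guide by adjusted p, up to 5 each way between the guides, the defining genes of the response, and up to 3 genes of each pathway list. The genes and lists were chosen with earlier results of these data known.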

Additional observations from a re-analysis of the deposited data

Results flagged for a closer look

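The guides differed in 15 genes of the set by the test of the difference itself, against 10.4% higher and 11.5% lower over all genes tested. Each value is the log2 difference of sgEZH2-1 minus sgEZH2-2. The difference was positive for RSAD2 (0.84), SAMD9L (0.73), GBP3 (0.50), HERC6 (0.47), SAMD9 (0.34) and IFIT5 (0.33). It was negative for IFITM1 (-0.72), IFI6 (-0.58), IFITM2 (-0.49), GBP2 (-0.48), BST2 (-0.43), OAS2 (-0.38), OASL (-0.37), OAS1 (-0.34) and IFITM3 (-0.34).

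IFITM1 stood out because it passed the test against the controls in opposite directions, lower with sgEZH2-1 (-0.26) and higher with sgEZH2-2 (0.46), although the fall with sgEZH2-1 was lost without several single libraries. RSAD2 and OASL rose with both guides, with RSAD2 higher under sgEZH2-1 (2.75) than under sgEZH2-2 (1.90) and OASL the other way round (0.51 and 0.87). The amount of guide in each population and the editing at each target were not analysed here.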

How the results depend on the processing

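No gene called in a comparison, in the main fit or an alternative, turned its direction there in any alternative that was run. Genes called in no fit of a comparison were not checked for this. With the guides pooled, the 7 genes that rose became 12 with DESeq2 and 17 with the mean of both guides in the fit of 3 groups. Over all genes tested, 3.76% rose in the main fit and 7.7% with that mean. Such shares were not counted for the other alternatives or without single libraries. A change in the number of genes there may therefore hold for all genes and not only for the set. Counting only genes with little shared sequence, chosen after seeing the data, left 9 of 14 with sgEZH2-2 and 5 of the 9 that were lower with sgEZH2-1 than with sgEZH2-2, because fewer genes are counted. The median log2 fold change with sgEZH2-1 was 0.15 when every gene with at least 1 count was kept, since more genes enter, and the summed level in the controls was 2378 CPM with no scaling. RLE scaling, a minimum count of 50, limma-voom and each guide with the controls alone left all counts within 1.5 times. Leaving out each library in turn, the number of genes ran from 0 to 7 higher pooled, from 11 to 16 higher and 0 to 4 lower with sgEZH2-1, from 8 to 17 higher and 0 to 1 lower with sgEZH2-2, and from 4 to 8 higher and 4 to 9 lower with sgEZH2-1 than with sgEZH2-2. No gene fell with the guides pooled in any of these fits. With 1 control left, its spread is taken from the guide libraries. No paired analysis was possible because the columns carry no replicate number. Genes called in every fit were 11 of 19 with sgEZH2-1, 7 of 14 with sgEZH2-2, 8 of 15 between the guides and 0 of 7 pooled. The genes with few counts (MX2, IFI27, IRF9, XAF1, ISG20, IFI44L and CMPK2) limit what can be seen at this depth.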

Other observations

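Around the 40 genes of the set that were not called with the guides pooled, 332 other genes of the table within 500 kb were tested, of which 6 rose and 1 fell, where 3.76% and 0.594% of all genes tested did so. The 6 were PLSCR4, HIPK2, SAMD11, PRIMA1, RASAL1 and HAPLN3, and the 1 that fell was ABCG2, next to HERC6 and HERC5. They were named after their values were seen.

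Of 6 markers of plasmacytoid dendritic cells, the main makers of type I interferon in blood, only TCF4 could be tested. TCF4, a transcription factor that many other cells express too, was at 1.08, 1.37 and 1.26 CPM with sgEZH2-1 and 0.966, 0.787 and 1.37 CPM with sgEZH2-2, against 0.284 and 0.130 CPM in the controls, with all guide libraries above both controls (pooled log2 fold change 2.43 ± 0.45, adjusted p = 0.0127). GZMB was at 0 in every library, and CLEC4C, LILRA4, IL3RA and IRF8 had at most 0.153 CPM. The sum of the list was 1.24 to 1.51 CPM with sgEZH2-1 and 0.787 to 1.68 with sgEZH2-2, against 0.261 to 0.426 in the controls, and its part in the results was not tested.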
